A study of Xenopus laevis with 16 samples.

Results

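The 3 libraries described here come from Xenopus laevis animal caps at 24 h, out of 16 libraries in the series. They are GATA4-GR explants (G4), GATA4-GR+Dkk-1 explants (G4D) and uninjected control explants (AC), with 1 library each. Because both treated libraries carry GATA4, they were taken as near-replicates of one GATA4 arm, and the difference between them served as the yardstick for every change. All explants were cut from blastula-stage embryos, and each library was made from a pool of explants. The treated caps came from embryos injected with mRNA for a GATA4-glucocorticoid receptor fusion, alone or with mRNA for the secreted Wnt antagonist Dkk-1, and the fusion protein was switched on with dexamethasone (DEX) when the caps were excised. Controls were not injected, so an effect of injection itself cannot be told apart from one of GATA4. Whether the control caps also received DEX is not given in the sources used here.

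GATA4 is a zinc-finger transcription factor that binds GATA motifs and is needed for the formation of the heart and of endodermal organs. The animal cap is pluripotent ectoderm that forms epidermis when cultured by itself, and forced GATA4 activity can turn part of it towards cardiac and endodermal fates. Dkk-1 blocks canonical Wnt signalling at the cell surface, a condition that favours heart formation in vertebrate embryos. The deposited table gives genes only as identifiers of an early genome annotation, and 0 of 54142 were found in the RefSeq gene table used here. For that reason the changes are described by level, size and time course. The markers of epidermis, heart and endoderm could not be looked up, no sequence is shown, and homeologous gene copies were not paired.

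The G4, G4D and control libraries held 14944274, 17854566 and 17145848 counts at 24 h, and all 16 libraries held between 11339819 and 23310242. The values are expected counts, which divide a read that fits several gene models between them, and 51.2% of those used at 24 h were fractional. Values of near-identical gene copies are therefore uncertain. At least 10 counts were found in 24384 models with G4, 25845 with G4D and 23538 in control. A total of 27163 models passed the filter on low counts and were tested. When all 16 libraries were scaled together, the 24 h control library had a TMM scaling factor of 0.71, the lowest, against 0.867 for G4 and 0.912 for G4D. The test at 24 h used factors from its own libraries, which were 0.876 for control, 1.05 for G4 and 1.09 for G4D.

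Both GATA4 libraries were far closer to each other than either was to control. The absolute log2 difference between G4D and G4 had a median of 0.233 over the tested models, and 10% of the models differed by more than 0.872. Against control, the median was 0.595 for G4 and 0.597 for G4D, and 10% of the models differed by more than 2.49 and 2.55. At least a 2-fold difference separated G4D from G4 in 7.37% of the models, whereas 33.9% of models were at least 2-fold away from control in G4 and 34.1% in G4D. The spread shrank as counts grew. It had a median of 0.466 in the 7263 models with up to 30 counts on average, of 0.203 in the 5595 models with 100 to 300 counts, and of 0.119 in the 3349 models with 1000 to 10000 counts. The difference between G4D and G4 holds both the variation between explant pools and whatever Dkk-1 added, and these cannot be told apart with 1 library each. The same median was 0.193, 0.192 and 0.224 at 2.5, 5 and 7.5 h, so the yardstick at 24 h was the widest of the 4.

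Against this yardstick, 4911 models were higher and 5046 lower in GATA4 explants than in control at 24 h (edgeR's quasi-likelihood test, adjusted p under 0.1), which is 18.1% and 18.6% of those tested. Without adjustment, 10818 models had p under 0.05. Over all tested models, 3751 (13.8%) lay on opposite sides of control in G4 and in G4D, and 0 of the called ones did. The test takes the distance between G4 and G4D as its error, so it favours models on which both match. The models called higher had a median log2 difference of 1.70 in G4 and 1.75 in G4D, and those called lower had medians of -1.58 and -1.58, while the medians over all tested models were 0.016 and 0.010. A description with no test, which asked for at least 2-fold in both libraries and a smaller spread, gave 3815 higher and 3632 lower models (14% and 13.4%), and 6766 of these 7447 were also called by the test. The control arm is 1 library and was assumed to vary like the GATA4 pair. The balance between the directions depended on the scaling. With libraries scaled by total counts alone, the calls were 7522 higher and 3795 lower, so that 66.5% instead of 49.3% of the calls were higher, and the median log2 change of all tested models was 0.312 instead of 0.026.

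**Figure D1:**
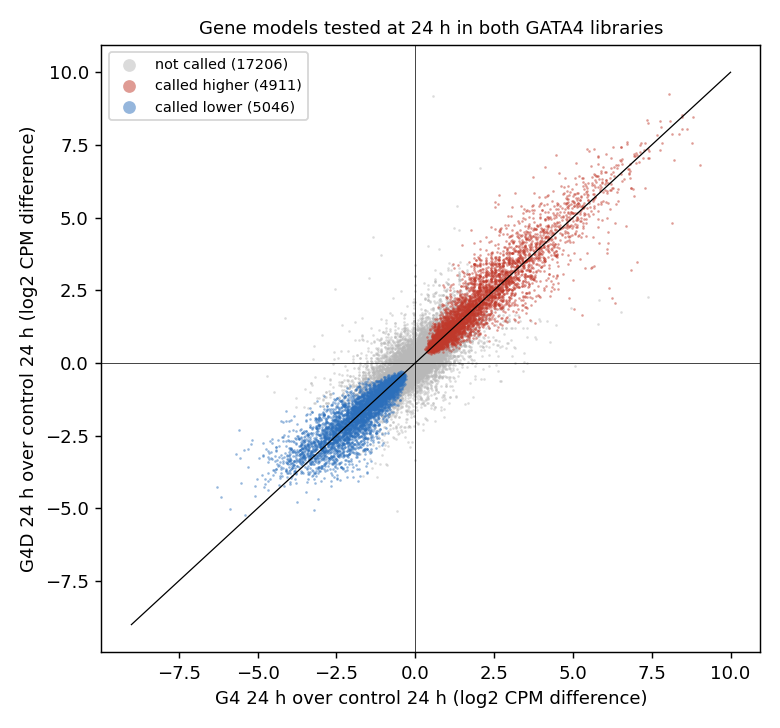
Each point is 1 of 27163 gene models, with its log2 CPM difference from the 24 h control library in G4 (x axis) and in G4D (y axis), and the line marks equal values. Called models lie along the line, 4911 higher (red) and 5046 lower (blue), and the red arm reaches much farther from 0 than the blue arm.

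Gains and losses differed in depth more than in number. Of the models called higher, 3414 were at least 2-fold, 1861 at least 4-fold, 447 at least 16-fold and 79 at least 64-fold above control in both libraries. Of the models called lower, 3439 were at least 2-fold and 1431 at least 4-fold below control in both, but only 14 reached 16-fold and none, 0 of 5046, reached 64-fold. The imbalance was seen under each scaling tried, with 522 and 6 models at 16-fold when total counts alone were used, and with a prior count of 0.5 in place of 2 the numbers were 806 and 31. Single libraries gave relatively more deep losses, but those counts cover all tested models and not only the called ones. With each library taken alone, over all tested models, 577 were at least 16-fold higher in G4 and 667 in G4D. At least 16-fold lower were 139 in G4 and 44 in G4D, so the near-replicates differed on the number of deep losses. In the middle of the range the directions were alike, with a median fitted log2 change of 1.85 for models called higher and -1.63 for those called lower.

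The same picture came from counts without any scaling. At least 100 counts in both G4 and G4D and at most 3 in control were found in 108 models at 24 h. Of these, 26 had 0 counts in control. Not all were new in GATA4 explants. More than 3 counts were seen in an earlier control library in 55 of the 108. At 7.5 h, 51 already had at least 10 counts in both GATA4 libraries. The mean of the 108 over both GATA4 libraries of 24 h had a median of 210.5 counts, and the highest single value was 1609 counts. All 108 were called higher, beside 18.1% of all tested models. The rule that chose them uses the same 3 libraries as the test, which makes that call nearly certain. In the Nodal5 library of 24 h, 42 of the 108 also had at most 3 counts. The share of all tested models was not computed for this count, nor for the 55 and 51 above, so these counts only describe the 108. The reverse, at least 100 counts in control and at most 3 in both GATA4 libraries, was found in 0 models. With each library taken alone, the first rule was met by 125 models in G4 and 200 in G4D, and the reverse by 7 and 0. Among the 13424 models with at least 100 counts in control, only 5 had at most 10 counts in both G4 and G4D. Models well counted in control were thus nearly always still detected in GATA4 explants.

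The models called lower made up a large part of the control transcript pool. They held 21.7% of the counts in G4 and 21.1% in G4D, against 44.2% in control. At 7.5 h the same models had held 18.1% in G4, 17.4% in G4D and 20.5% in control, so their share more than doubled in control caps by 24 h and grew little in GATA4 caps. The models called higher held 19.2% of the counts in G4 and 19.4% in G4D, against 6.54% in control, where they had held 12.6% at 7.5 h. The models were chosen by their 24 h values, which favours a high control share for those called lower and a low one for those called higher. The models chosen without a test gave smaller shares, with 8.14% in G4 and 7.38% in G4D against 26.7% in control for the 3632 lower ones, and 9.55% and 9.68% against 1.65% for the 3815 higher ones.

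**Figure D2:**
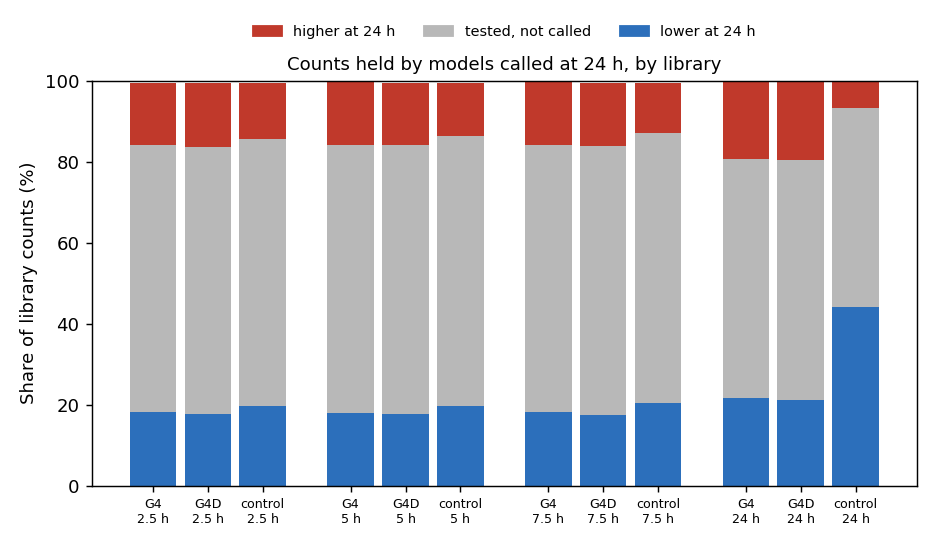
Bars give the percent of each library's counts held by models called higher (red), not called (grey) or called lower (blue) in GATA4 explants at 24 h, for G4, G4D and control at the 4 time points. The blue part stays between 17.4% and 21.7% in all GATA4 libraries and reaches 44.2% in the 24 h control.

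The share of models called lower grew with abundance, although most of the 5046 had fewer than 1000 counts on average. Of the 158 models with more than 10000 counts on average, 9.49% were called higher and 36.1% lower, whereas the 5595 models with 100 to 300 counts were split evenly, with 22.1% higher and 20.9% lower. Among the 50 models with the highest counts in control, 1 was higher, 33 were lower and 16 were not called. Over all tested models, 18.1% were higher and 18.6% lower. Of the 50, 11 were at least 4-fold below control in both GATA4 libraries. Ranking by the control library, which the calls also use, favours a call as lower. These 50 held 11.5% of the counts in G4 and 10.9% in G4D, against 17.2% in control. Among the 50 highest in the GATA4 libraries, 5 were called higher, 16 lower and 29 not at all, although ranking by these libraries favours a call as higher. Of these, 32 were also among the 50 highest in control. In such bulk samples, fewer cells of a type and less RNA per cell cannot be told apart. The most abundant transcripts of both kinds of explant were thus largely shared. Calls among the 32 shared models were not counted separately.

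Xelaev16043760m.g, the well-counted model with the largest rise, had 7842 counts in G4 and 7688 in G4D, against 15 in control. Its log2 differences from control were 8.80 and 8.47, and the fitted change was 8.80 (standard error 0.305, adjusted p = 0.000402, edgeR's quasi-likelihood test). It was already present in GATA4 caps at 2.5, 5 and 7.5 h, with 73, 242 and 256 counts in G4 and 57, 184 and 123 in G4D, while the 3 earlier control libraries had 0 counts each. The Nodal5 libraries never held more than 8 counts. This model was thus detected early with GATA4 and was far higher there at 24 h, with a lower level in G4D than in G4 at each early time (8.36 CPM in G4D and 14.6 CPM in G4 at 7.5 h).

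Xelaev16069764m.g, the most abundant of the well-counted models that were at least 2-fold higher, followed another course. It had 45664 counts in G4 and 62563 in G4D at 24 h, against 335 in control, which is 0.306% and 0.350% of all counts against 0.00195%. The fitted log2 change was 7.10 (standard error 0.187, adjusted p = 0.000402, edgeR's quasi-likelihood test). Its level was highest early and lower at 24 h. G4 libraries had 12230, 13310, 11150 and 3530 CPM at the 4 times and G4D libraries had 15300, 13310, 14630 and 3848 CPM, against 14.6, 7.17, 15.6 and 27.55 CPM in control. The GATA4 effect at 24 h was smaller than that at 7.5 h (difference -2.63 on the log2 scale, adjusted p = 0.000248, edgeR's quasi-likelihood test). The Nodal5 library of 24 h held 1593 counts. GATA4-GR mRNA was injected only into G4 and G4D caps, and whether any of these counts come from it was not tested, since the identifier is not paired with a sequence. The 5 models next in abundance rose far less, with smaller log2 differences of 1.14 to 2.55, 8798 to 48767 counts in the GATA4 libraries and 1716 to 15715 in control.

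Xelaev16072111m.g, the well-counted model with the largest fall, had 333 counts in G4 and 445 in G4D, against 6357 in control. The log2 differences were -4.31 and -4.20, and the fitted change was -4.26 (standard error 0.145, adjusted p = 0.000402, edgeR's quasi-likelihood test). At 2.5 to 7.5 h it had at most 1 count in any GATA4 library and at most 7 in control, so it appeared between 7.5 and 24 h in all 3 kinds of explant and to a lower level with GATA4. The Nodal5 library of 24 h held 5 counts of it.

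Xelaev16040414m.g, the most abundant of the well-counted models that were at least 2-fold lower, had 70855 counts in G4 and 73384 in G4D, against 169375 in control. These are 0.474%, 0.411% and 0.988% of the library totals. The fitted log2 change was -1.44 (standard error 0.134, adjusted p = 0.00109, edgeR's quasi-likelihood test). It was also called lower at 5 and 7.5 h, with 1018 CPM in G4 and 679 CPM in G4D against 1540 CPM in control at 7.5 h, and it reached 5477 and 4513 CPM against 13930 CPM at 24 h. The level was therefore higher at 24 h than at 7.5 h in all 3 kinds of explant and lower with GATA4 at both times.

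**Figure D3:**
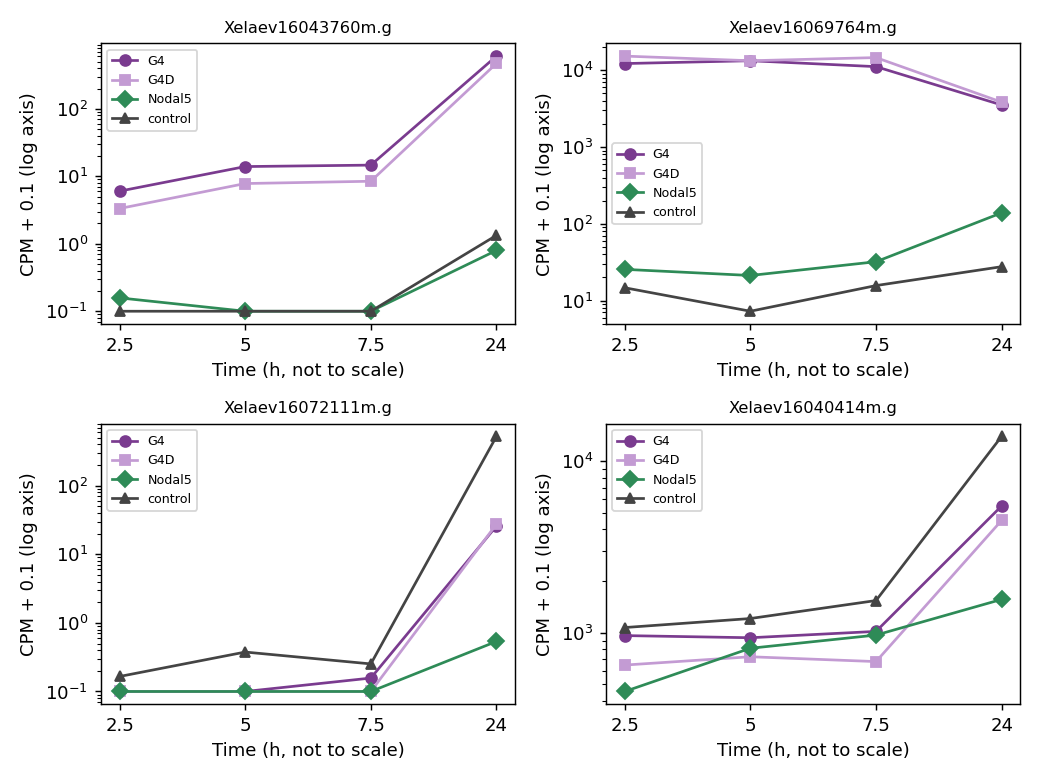
Level in CPM plus 0.1 (log axis) of the 4 named models at the 4 time points in G4, G4D, Nodal5 and control, 1 library per point. Xelaev16043760m.g climbs to 606 and 473 CPM in the GATA4 libraries at 24 h, Xelaev16069764m.g starts at 12230 and 15300 CPM and ends at 3530 and 3848 CPM, and Xelaev16072111m.g and Xelaev16040414m.g are highest in the 24 h control.

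Most of the changes called at 24 h were not called at the earlier times, when few of all tested models were called. The 7.5 h libraries, which the 24 h calls did not use, were tested in the same way, and 5.53% of all models tested there were called higher and 4.93% lower. Of the 4151 models called higher at 24 h that could be tested at 7.5 h, 899 (21.7%) were higher then too and 154 (3.71%) were lower. Of the 4174 models called lower at 24 h, 557 (13.3%) were lower at 7.5 h and 82 (1.96%) were higher. Both shares in the direction of 24 h were above those of all models, and both shares in the opposite direction were below. At 2.5 h, 12.3% of the models called higher and 11.5% of those called lower that were tested then were called in the same direction, beside 3.24% and 4.77% of all models, and at 5 h the shares were 22.8% and 15.5%, beside 7.38% and 7.19%.

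Counting over the 3 early times, 401 of the 4911 models called higher were called higher at each of them, and 3795 (77.3%) at none. Of the 5046 models called lower, 329 were lower at each early time and 4222 (83.7%) at none. These counts include 648 and 724 models that had too few counts to be tested at any early time. The same shares over all tested models were not computed, so these counts cannot be set against them. At the single early times, 3.24% to 7.38% of all models tested then were called higher and 4.77% to 7.19% lower. With so few calls, a large share at none is by itself no sign of a late onset. The median log2 difference of the models called higher was 0.009, 0.103 and 0.185 in G4 at 2.5, 5 and 7.5 h and 1.70 at 24 h. For those called lower it was -0.084, -0.116 and -0.107 and then -1.61. Over time the libraries were scaled together, which moves the 24 h values slightly from those given above.

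**Figure D4:**
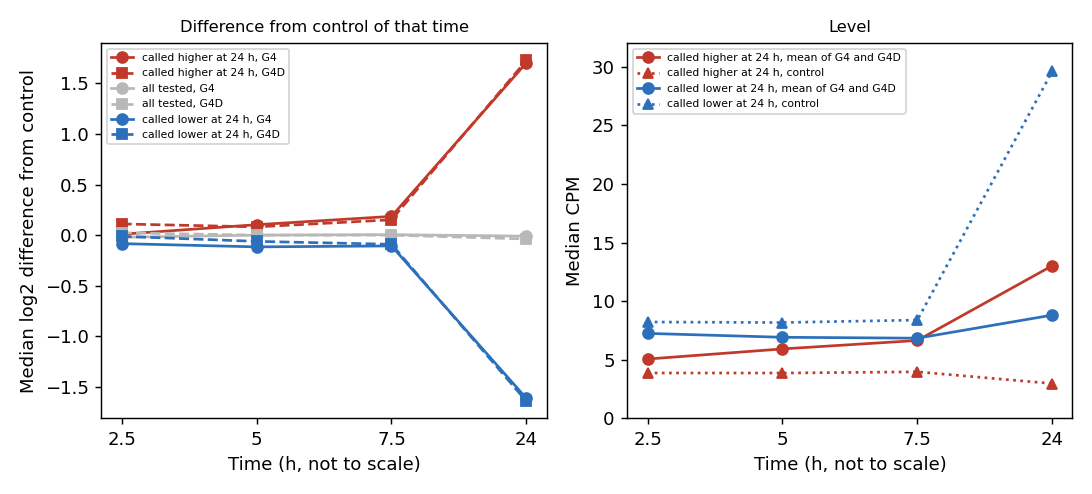
Left, median log2 difference from the control of the same time for models called higher (red) or lower (blue) at 24 h and for all tested models (grey), in G4 (circles) and G4D (squares). Right, median CPM of the called models in GATA4 libraries (mean of the G4 and G4D medians) and in control (triangles), where the models called lower stand at 29.6 CPM in the 24 h control and between 8.17 and 8.38 CPM before.

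Levels within each kind of explant were compared between 7.5 and 24 h to see which arm moved, under TMM scaling only. The TMM factor fell more in control than in G4 or G4D between these times, and a lower factor raises the scaled levels. The scaling thus favours rises in control and works against falls there, relative to the GATA4 libraries. No other scaling was tried for these moves, and the shares of all tested models used the same factors. These counts describe the models called at 24 h and share the 24 h libraries with the calls. Of the 5046 models called lower, 3391 (67.2%) rose at least 2-fold in control, beside 30.3% of all tested models, and 1680 (33.3%) rose at least 2-fold in both GATA4 libraries, beside 25.3%. In 1662 (32.9%) the rise was at least 2-fold in control and in both GATA4 libraries, beside 18.1% of all tested models. In another 1680 (33.3%) control rose that much while the GATA4 pair did not move 2-fold together, beside 11.9%. In 462 (9.16%) both GATA4 libraries fell at least 2-fold while control changed less than that, beside 3.39%. Of the 4911 models called higher, 2157 (43.9%) rose at least 2-fold in both GATA4 libraries, beside 25.3% of all tested models. In 1680 (34.2%) control fell at least 2-fold, beside 21.9%. Of the models called higher, 1113 (22.7%) rose 2-fold in both GATA4 libraries while control changed less than that, beside 6.32% of all tested models, and 1142 (23.3%) fell 2-fold in control while the GATA4 pair did not move 2-fold together, beside 8.81%. Under this scaling, the classes in which 1 arm alone passed its limit were thus of similar size among the models called higher, 1113 and 1142. All rises with GATA4 outnumbered all falls in control, 2157 against 1680. The GATA4 limit asks for both libraries and the control limit for 1, so these numbers are not like measures.

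The strongest late gains show the same overlap. In control, 1292 models rose at least 16-fold between 7.5 and 24 h, with a median log2 rise of 5.10. Their median log2 rise was 3.06 in G4 and 3.31 in G4D, and only 39 of them rose less than 2-fold in both. Most of them, 1011, were called lower, 71 were called higher and 210 were not called. Over all tested models, 18.6% were called lower and 18.1% higher. In both GATA4 libraries, 646 models rose at least 16-fold, with median log2 rises of 5.05 in G4 and 5.29 in G4D, against 4.14 in control. Of these, 317 were called higher, 204 lower and 125 were not called. Choosing models by a rise in one arm favours a larger rise there. The scaling again favours rises in control, so the numbers of models that rose in each arm depend on it.

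The GATA4 effect at 24 h was set directly against that at 7.5 h in a fit of all 16 libraries, with G4 and G4D as near-replicates at every time point, which leaves 4 residual degrees of freedom. This fit shares its estimate of the spread over all time points. Its common relative spread (edgeR's biological coefficient of variation) was 0.142, against 0.199 at 24 h and 0.135 at 7.5 h fitted alone. The error at 24 h may thus be understated, which favours more calls. The difference passed the threshold in 2663 models towards higher (8.6% of those tested) and 3350 towards lower (10.8%). Of the 899 models called higher at both times, the median log2 change was 3.73 at 24 h and 3.20 at 7.5 h, and the effect was larger at 24 h in 141 and smaller in 44 by this test. Of the 557 called lower at both, the medians were -1.96 and -1.60, and the reduction was deeper at 24 h in 107 and shallower in 24. Both sets were chosen by calls from the same libraries. The wider spread at 24 h asks for a larger change to be called, which favours a larger effect then. The 154 models that were called higher at 24 h and lower at 7.5 h had medians of 1.68 and -1.41, and the 82 called lower at 24 h and higher at 7.5 h had medians of -1.34 and 1.77. These are given as a description, since the models were chosen by opposite calls and such calls were rarer than among all models.

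At 24 h fewer deep losses were counted in each GATA4 library than in the 1 library of explants with Nodal5, a ligand that induces mesoderm and endoderm. Nodal5 is compared with the same control library, so the values are given side by side. Models at least 16-fold below control numbered 139 in G4, 44 in G4D and 930 with Nodal5, while models at least 16-fold above control numbered 577, 667 and 598. At least 100 counts in control and at most 3 in the treated library were found in 7 models with G4, 0 with G4D and 161 with Nodal5, at similar totals of 14944274, 17854566 and 14053552 counts. In those 161 models the median was 40 counts in G4 and 38 in G4D, against 210 in control, and 148 of them were called lower in GATA4 explants, beside 18.6% of all tested models. Choosing models by a count near 0 with Nodal5 and a high count in control favours both a smaller loss with GATA4 and a call as lower.

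**Figure D5:**
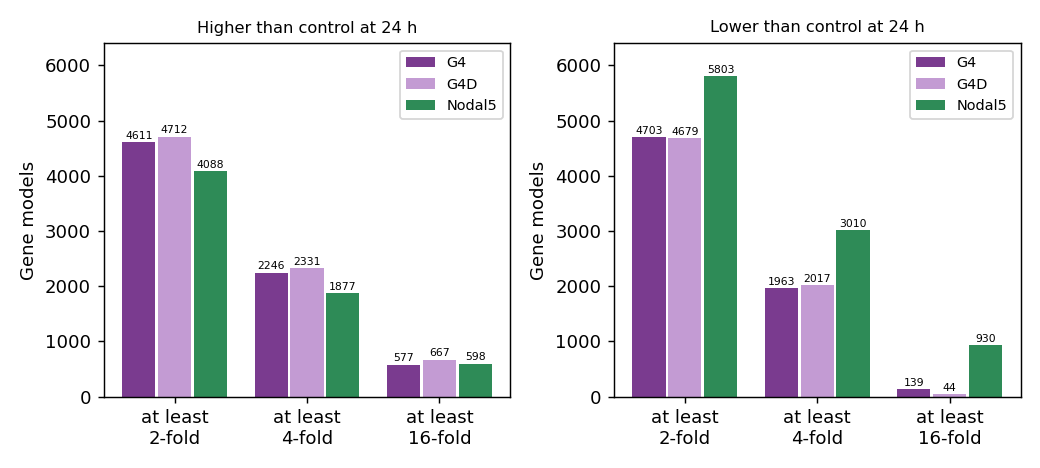
Number of gene models at least 2-, 4- or 16-fold higher (left) or lower (right) than the 24 h control library in the G4, G4D and Nodal5 libraries, each taken alone, from log2 CPM computed with prior count 2. Gains are of similar number in the 3 libraries, and losses of at least 16-fold number 139, 44 and 930.

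The models called higher with GATA4 had a median log2 difference from control of 1.70 in G4, 1.73 in G4D and 0.85 with Nodal5. The models called lower had medians of -1.61, -1.64 and -1.79, and all tested models had medians of -0.010, -0.038 and -0.039. The called models were chosen by distance from the control library, which the Nodal5 medians also use. That choice favours a Nodal5 median on the same side of control. The difference between the GATA4 pair and the Nodal5 library was tested without the control library in the contrast. Over all tested models, 16.4% were higher and 13.2% lower in the GATA4 pair. Of the models called higher against control, 1961 (40%) were above Nodal5 and 648 (13.2%) below it. Of those called lower against control, 1327 (26.3%) were above Nodal5 and 797 (15.8%) below. The GATA4 libraries are shared by both tests, which favours the share above Nodal5 among models called higher and the share below it among models called lower. With G4 left out and the spread taken from all time points, 5860 instead of 3679 models were lower in GATA4 than with Nodal5.

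Differences between G4D and G4 remained within the called models, although calling favours a small distance between them. The change was larger in G4D in 55.6% of the models called higher and in 50% of those called lower, and the median G4D minus G4 difference was 0.048 and -0.000058 on the log2 scale. A distance of at least 2-fold between both libraries was found in 393 of the 4911 models called higher, 259 with G4D above G4 and 134 below, and in 320 of the 5046 called lower, 178 above and 142 below. Over all tested models, 2001 (7.37%) were that far apart, 1190 above and 811 below. Both called sets lay near that share. The widest gap of all tested models belonged to one that was not called (adjusted p = 0.137, edgeR's quasi-likelihood test), with 80213 counts in G4D and 162 in G4, against 104 in control. It had been high in G4D from the start, at 1.42%, 1.40% and 1.59% of all counts at 2.5, 5 and 7.5 h and 0.449% at 24 h, and never passed 499 counts in G4. The Nodal5 libraries held 692, 613 and 187 counts at the early times and 6965 counts (0.0496%) at 24 h. It was singled out after its values were seen. Dkk-1 mRNA was injected only into G4D caps, and whether this model counts it was not tested.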

How the data were processed

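Poly(A) RNA of 16 animal cap libraries was sequenced by the authors. Paired-end reads were matched with Bowtie, at up to 3 seed mismatches, to JGI v7.2 models, and the authors deposited RSEM expected counts, not normalised, for 54142 models. Versions are not given in the sources used here. Expected counts were rounded. Models were filtered with filterByExpr (minimum count 10) and scaled by TMM, and edgeR 4.0.16 in R 4.3.3 gave quasi-likelihood tests with Benjamini-Hochberg adjustment at 0.1, the threshold of the study's methods. The G4 and G4D libraries formed one arm and the control library the other, with 1 residual degree of freedom. P-values measure only the spread between these libraries, which differ by Dkk-1. Log2 differences of single libraries come from log2 CPM at prior count 2, and CPM over time used TMM factors of all 16 libraries. The standard error is the fitted change divided by the square root of F. DESeq2 1.42.0 was an alternative. Tests were also run on simulated counts with few changes, balanced in direction. There the control was drawn with the same spread as the GATA4 pair. Neither that assumption nor scaling under a broad shift was thus checked.

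The members, tests and named-model rule were chosen with earlier results of these data known. Planned gene lists could not be applied, since 0 identifiers matched. Named models were called, had at least 10 counts in each 24 h library, at least 1000 in the higher arm and a G4D minus G4 difference of at most 0.5. In each direction these were the model with the largest smaller-of-both change and the most abundant one changed at least 2-fold, among 542 higher and 1165 lower candidates.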

Additional observations from a re-analysis of the deposited data

Results flagged for a closer look

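The GATA4 effect differed between 24 and 7.5 h by a test of the difference itself in 2663 models towards higher and 3350 towards lower, of 30958 tested. For the named model Xelaev16069764m.g the difference was -2.63 on the log2 scale (adjusted p = 0.000248, edgeR's quasi-likelihood test). Its level was 3530 CPM in G4 and 3848 CPM in G4D at 24 h and 11150 and 14630 CPM at 7.5 h, and in control it was 27.55 CPM at 24 h and 15.59 CPM at 7.5 h. The test of the difference shares its estimate of the spread over all time points, while the spread between G4D and G4 was widest at 24 h. The other 3 named models did not pass this test, with adjusted p = 0.772, 0.537 and 0.352.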

How the results depend on the processing

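No model called both by the main test and by an alternative fit changed direction. Calls that an alternative lost were not checked for direction. The 4 named models kept their direction and call in all fits. The counts of 4911 higher and 5046 lower models stayed within 1.5 times under median-of-ratios scaling, other filters, a threshold of 0.05 and other estimates of the spread, but DESeq2's Wald test gave 2787 and 2996, and total counts alone gave 7522 higher. Without G4 or without G4D, with the spread taken from other time points, they were 4899 to 4975 higher and 5927 to 6620 lower. The counts without a test were 1850 and 1428 at a minimum log2 change of 2. Against Nodal5, 5011 to 5860 models were lower without 1 GATA4 library. Median-of-ratios scaling gave 17.6% and 9.55% for the higher and lower models called so at 7.5 h, and a 2-fold limit in both libraries gave 9.89% for the lower ones. Of the models chosen without a test, the higher ones held 9.62% of GATA4 and 1.65% of control counts, and the lower ones 7.76% and 26.7%. Those sets hold fewer models and leave out changes under 2-fold. The median spread was 0.175 in models with at least 50 counts on average. The cause of these shifts was not tested. No paired analysis was possible because every group holds 1 library. Depth limits models near 3 counts, and 1 control library limits every comparison.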
